A study of Mus musculus with 3 samples.

Results

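Mature mast cells of the mouse peritoneal cavity were compared with type 2 innate lymphoid cells (ILC2) of the same site across the genes that either population carried at a high transcript level. Genes above a log2 level of 8 on the array of mature mast cells, on that of innate lymphoid cells or on both numbered 1031 of the 22180 genes measured. Of these, 568 were above 8 on both arrays, 220 on the mast cell array alone and 243 on the lymphoid array alone. The cutoff splits a continuous range. Tspo (8.001 in innate lymphoid cells, 7.04 in mature mast cells), Snf8 (8.002 in mature mast cells, 7.52 in innate lymphoid cells) and Rdh13 (8.01 on both) lie just inside it. Dcpp1 (7.9996 in mature mast cells, 7.81 in innate lymphoid cells), Osgin1 and Upk2 (both a little under 8 on both arrays) lie just outside it.

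Cells were washed from the peritoneum of naive female BALB/c mice aged 10 to 11 weeks. They were pooled from 5 mice and sorted in a pair of rounds, and 100 cells of each population were lysed. The mature mast cell gate took lineage negative to low cells with high c-kit, FcεRI and T1/ST2, intermediate CD16/32, high side scatter, integrin β7 from negative to intermediate, and neither CD127 nor CD25. The innate lymphoid gate took lineage negative cells with CD127, CD25 and T1/ST2, negative to low c-kit, and neither FcεRI nor CD16/32. Mast cell progenitors, also sorted, differed from mature mast cells in the gate by low side scatter and high integrin β7. Their values are given beside the others. Each population has 1 array of amplified RNA, so values carry no error, there is no test of any difference, and a fold describes these arrays alone. Levels are the deposited log2 values, on which 1 unit is 2-fold, and a difference is mature mast cells minus innate lymphoid cells. The array medians over all probe sets that name 1 gene were 6.298 (mature mast cells) and 6.303 (innate lymphoid cells). For a gene whose dimmer level was under its array's median, the median stands in for that level and the fold is written as "at least". Where this bound came to under 4-fold, levels alone are printed. Of all 22180 genes, 13452 had exactly the same deposited value on the mast cell and lymphoid arrays, and 10626 had it on all 3 arrays. Above a level of 8 such ties were fewer, 125 of 1031 between this pair of arrays. How the ties arose was not tested.

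Mast cells are granulocyte-like tissue cells of myeloid origin. They store proteases and amines on a heparin matrix and release them when IgE on FcεRI is crosslinked, and they depend on stem cell factor acting through Kit. Type 2 innate lymphoid cells lack antigen receptors, depend on interleukin 7 and answer interleukin 33 through ST2, the receptor that both gates used, by secreting interleukins 5 and 13. The study took these lymphoid cells as a distant relative of mast cells.

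The marker genes for each label were checked first. Of 10 mast cell markers, all 10 were higher in mature mast cells, and 9 of them were above 8 with a difference of 4-fold or more. These 9 were above 8 on the mast cell array alone, which fixes their direction. Of all 220 such genes 45% were 4-fold higher. For Ms4a2 (8.13 against 5.92) and Mrgprb2 (8.16 against 5.82) the bound over the array median was under 4-fold. Cpa3, the gene of the granule carboxypeptidase, had a level of 12.83 in mature mast cells, 12.30 in progenitors and 5.28 in lymphoid cells. Kit, the stem cell factor receptor, was at 10.29, 6.88 and 6.63 in the same order. Tph1, whose enzyme limits the making of serotonin, was at 9.57, 5.86 and 5.59. The fold in mature mast cells over innate lymphoid cells was at least 92.3 for Cpa3, 12.6 for Kit and at least 9.62 for Tph1. The progenitor level of Cpa3 lies beside that of mature mast cells, whereas those of Kit and Tph1 lie beside the lymphoid level. The gate difference given above between progenitors and mature mast cells names neither c-kit nor FcεRI. Why Kit and Fcer1a (5.37) were low on the progenitor array was not tested. Hdc, the histamine-forming enzyme, was the marker that did not reach 8, at 7.05 against 5.56.

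Of 11 innate lymphoid markers, 4 were above 8 and at least 4-fold higher in innate lymphoid cells. These 4 were above 8 on the lymphoid array alone, and of all 243 such genes 30.5% were 4-fold higher there. For Klrg1 the bound over the array median was under 4-fold. Il7r, the CD127 chain of the sort, was at 8.72 in innate lymphoid cells, 5.76 in mature mast cells and 5.89 in progenitors. Cxcr6, a chemokine receptor, was at 9.41, 5.63 and 6.03. Arg1, which encodes arginase 1, was at 9.49, 7.07 and 6.90, and Klrg1, an inhibitory receptor, at 8.11, 5.87 and 6.05. The fold in innate lymphoid cells was at least 5.36 for Il7r, at least 8.65 for Cxcr6 and 5.35 for Arg1. In these 4 genes both mast cell arrays were low. The remaining 7 markers did not reach 8. Among them Il2ra, which encodes the sort protein CD25, was at 7.25 against 6.58, and Il5 at 6.09 against 5.60. Rora (6.64) and Il13 (7.41) had the same value on both arrays. Gata3 was nearly level, at 6.82 against 6.76, Icos was at 6.32 against 6.04 and Id2 at 7.81 against 7.29. Rora and Il13, defining transcripts of the lymphoid label, thus did not set the pair of arrays apart, and Gata3 did so only slightly. Exact ties were common, in 13452 of all 22180 genes, so a tie does not show that the cells held equal transcript.

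Markers of other peritoneal cells were at low levels in both populations. Of 140 measured markers in 9 lists, 5 were above 8 on either array, and none of the 5 was 2-fold apart. Most genes were as low, since 1031 of all 22180 were above 8 on either array, a share near that of the markers. They were Ighm (8.24 on both), Lat (8.30 on both), Acta2 (8.31 on both), Ccl5 (7.38 in mature mast cells, 8.15 in innate lymphoid cells) and Cd209a (7.97, 8.12). Below 8, Gpm6a and Klra9 were 2-fold apart. In innate lymphoid cells the macrophage gene Lyz2 was at 6.83, the B cell gene Cd79a at 6.80, the T cell gene Cd3e at 6.10 and the eosinophil gene Prg2 at 6.34, against array medians near the same level. The array has no zero level, so a level near the median does not show whether a transcript was present.

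**Figure D1:**
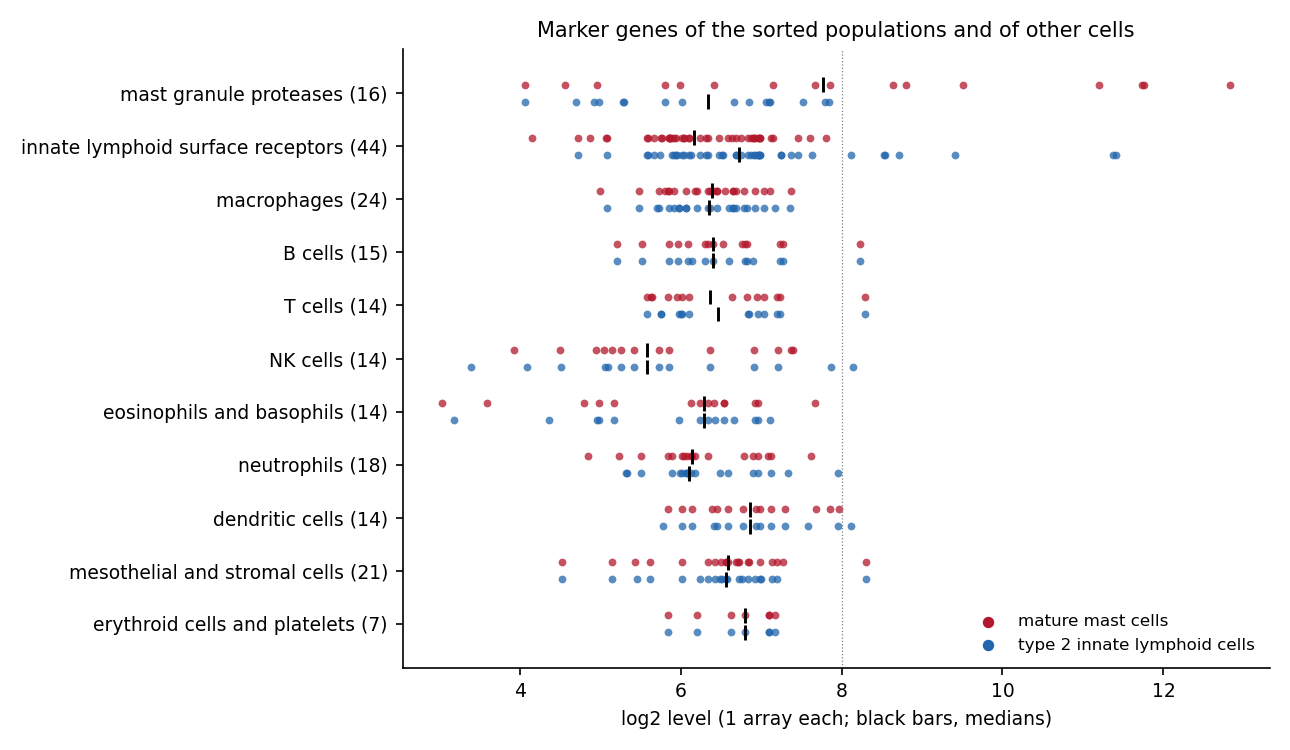
Log2 levels (horizontal axis) of marker genes in mature mast cells (red) and type 2 innate lymphoid cells (blue), 1 point per measured gene, with the number measured in parentheses and medians as black bars. Mast cell proteases reach 12.83 and innate lymphoid surface genes 11.41. In the 9 lists of other cells 5 of 140 genes pass the dotted line at 8, against 1031 of all 22180 genes.

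The letters just before the start of some marker genes are shown because GATA factors are known regulators of both lineages. RefSeq promoter windows on GRCm38.p6, from 250 bases before to 50 after the start, were found for 9 of the 10 mast cell markers. AGATAA or TGATAA, the letters bound by GATA factors, was searched for on both strands and was present in 5 of the 9 (55.6%), against 21% of the 27025 genes in the whole table. The 5 were Cpa3, Mcpt4, Fcer1a, Ms4a2 and Mrgprb2. CANNTG, the E-box, was in 7 of 9 (77.8%) against 75%. GGAAGT, an ETS site, was in 1 of 9 (11.1%) against 26.5%, TGACTCA, an AP-1 site, in 1 of 9 against 5.95%, and AGGTCA, a ROR site, in 1 of 9 against 18.1%. A match describes letters, not binding. Windows were found for 72.7% of the innate lymphoid markers, 69.7% of the genes 4-fold or more above and 65.4% of those 4-fold or more below in mature mast cells. These are under 80%, so motif shares over those sets would be void and none is given. The 250 bases before the start follow for 3 mast cell markers, 5′ to 3′ on the gene's strand, with AGATAA or TGATAA on either strand in capitals (TTATCT and TTATCA are the other strand). Il7r, the lymphoid marker, follows with GGAAGT or its other strand, ACTTCC, in capitals. All 4 genes lie on the minus strand, Cpa3 at chr3:20242182-20242431, Fcer1a at chr1:173227230-173227479, Ms4a2 at chr19:11623720-11623969 and Il7r at chr15:9529877-9530126.
Cpa3: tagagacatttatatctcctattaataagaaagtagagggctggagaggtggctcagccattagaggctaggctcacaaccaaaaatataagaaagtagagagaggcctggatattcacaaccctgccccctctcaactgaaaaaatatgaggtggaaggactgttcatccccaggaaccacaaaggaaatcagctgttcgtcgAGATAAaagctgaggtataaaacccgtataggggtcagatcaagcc
Fcer1a: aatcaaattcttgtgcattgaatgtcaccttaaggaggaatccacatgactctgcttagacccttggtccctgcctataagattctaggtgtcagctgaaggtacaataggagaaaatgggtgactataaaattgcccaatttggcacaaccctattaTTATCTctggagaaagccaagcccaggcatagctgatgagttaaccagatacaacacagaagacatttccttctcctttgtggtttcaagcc
Ms4a2: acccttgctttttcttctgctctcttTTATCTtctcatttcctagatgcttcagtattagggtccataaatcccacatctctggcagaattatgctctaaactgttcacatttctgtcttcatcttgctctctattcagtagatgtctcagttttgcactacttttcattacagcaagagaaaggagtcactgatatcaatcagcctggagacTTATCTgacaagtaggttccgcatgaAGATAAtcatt
Il7r: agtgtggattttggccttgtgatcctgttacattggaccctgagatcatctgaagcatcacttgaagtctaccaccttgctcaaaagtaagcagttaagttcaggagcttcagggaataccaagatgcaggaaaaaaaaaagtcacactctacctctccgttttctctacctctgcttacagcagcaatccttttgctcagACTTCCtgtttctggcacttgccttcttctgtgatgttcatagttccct
Counted from the start, the GATA letters began 46 bases before it in Cpa3, 92 in Fcer1a, and 224, 37 and 11 in Ms4a2, which has 3 matches in the printed stretch. The ETS letters began 49 bases before the start in Il7r.

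Over the 1031 genes, the mature mast cell level was above the lymphoid level by 4-fold or more in 99 (9.6%) and below it by as much in 81 (7.86%). At 2-fold the numbers were 177 (17.2%) and 199 (19.3%). The median difference was 0. In 52 of the 99 the lymphoid level, and in 37 of the 81 the mast cell level, lay under its own array's median. All 99 higher genes were among the 220 above 8 on the mast cell array alone, 45% of them, and 74 of the 81 lower genes among the 243 above 8 on the lymphoid array alone, 30.5% of them. Those genes entered through the array in which they are high, which fixes their direction. Several lists whose members entered that way are read against these shares, and several are also described over all their measured members with no cutoff. Others are set only against all 1031 genes or given by levels alone. Of all 22180 genes, 3606 were higher in mature mast cells by any amount, 5122 lower and the rest tied. Among the 568 genes above 8 on both arrays, for which this does not hold, none was 4-fold higher and 7 were 4-fold lower in mature mast cells, and at 2-fold 19 (3.35%) were higher and 60 (10.6%) lower. Receptor genes with olfactory or vomeronasal symbols, best known from the nose, were also among those far apart. Of 47 such genes above 8, 15 (31.9%) were at least 4-fold apart, 12 of them higher in mature mast cells, against 165 of the other 984 (16.8%). Differences of this size were thus also present in genes with no known role in either cell.

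**Figure D2:**
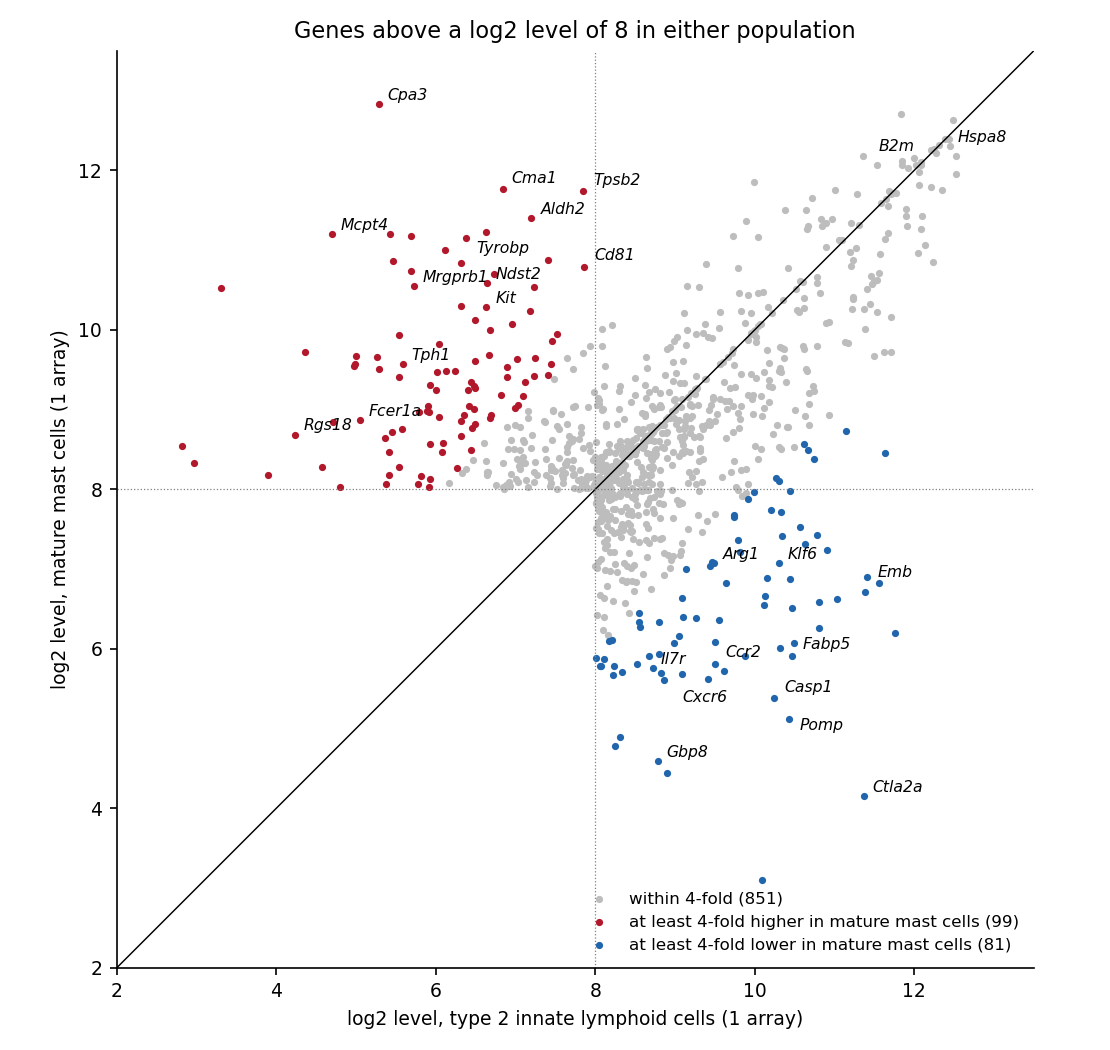
Log2 level in mature mast cells (vertical axis) against type 2 innate lymphoid cells (horizontal axis) for the 1031 genes above 8 on either array, 1 array each, with dotted lines at 8 and the line of equal levels. Red points are the 99 genes higher and blue points the 81 genes lower by 4-fold or more in mature mast cells, and the empty lower left corner is set by the cutoff.

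Among genes of the mast cell granule, several proteases were far apart. Of 16 measured, 11 were higher in mature mast cells by any amount, 3 lower and 2 tied, with a median difference of 0.68 against 0 over all genes. The 7 above 8 were so on the mast cell array alone, and 5 of these were at least 4-fold higher, against 45% of all genes that entered that way. Their median of 4.21 was 2.58 with a level of 7 in place of 8. Cpa3 and Mcpt4, the latter encoding a chymase, had the largest differences among the genes named as higher in mature mast cells. Mcpt4 was at 11.20 in mature mast cells, 9.73 in progenitors and 4.70 in innate lymphoid cells, a fold of at least 29.8. Cma1, another chymase gene, was at 11.76, 10.42 and 6.85, a fold of 30.2. The tryptase gene Tpsb2 was at 11.74, 8.94 and 7.85, a fold of 14.8. Progenitors were high in these 3 genes. Cma2, a chymase-family gene, was at 9.51, 5.51 and 5.29, so progenitors were as low as lymphoid cells there. Cma1 and Cma2 are next to each other and 3 protein-coding genes separate Cma2 from Mcpt4 in the RefSeq order of chromosome 14. Probe sets of such related genes may share signal. The tryptase gene Tpsab1 (8.63 against 7.80) and Ctsg, which encodes cathepsin G (8.80 against 7.52), were within 4-fold.

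For the matrix and the mediators of the granule, single genes were far apart. Of 18 measured genes for serglycin and heparin synthesis 3 were above 8. Ndst2, an enzyme of heparin sulfation, was at 10.59 in mature mast cells against 6.64 in innate lymphoid cells. Ext1, a polymerase of the heparan chain, was at 8.36 against 7.08, and Srgn, the core protein serglycin, at 9.20 against 8.81. Serglycin was thus bright in both populations. Of 19 measured mediator genes 10 were higher in mature mast cells by any amount, 4 lower and 5 tied. Above 8 were 6, of which 5 entered through the mast cell array alone, and 3 of these were at least 4-fold higher (against 45% of such genes). Beside Tph1 these were Hpgds, the haematopoietic prostaglandin D synthase (8.07 against 5.78), and Cyp11a1, the enzyme that opens steroid synthesis by cleaving the cholesterol side chain (9.58 against 7.44). Cyp11a1 was at 8.55 in progenitors, and the difference rests on 1 of its 2 probe sets. Maob, a monoamine oxidase, was at 8.82 against 7.64. The list also holds the reverse. Ptges3, a co-chaperone that can act as a prostaglandin E synthase, was at 8.81 against 10.68.

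Some genes of IgE signalling were higher in mature mast cells, from the receptor to its adaptors, while others were tied. Of 27 measured, 10 were higher by any amount, 3 lower and 14 tied, with a median of 0. Above 8 were 7, and all but Lat entered through the mast cell array alone. Of these 6, 3 were at least 4-fold higher, near the 45% of all genes that entered that way. Fcer1a, the IgE-binding chain, was at 8.87 in mature mast cells, 5.37 in progenitors and 5.05 in innate lymphoid cells, a fold of at least 5.94. The β chain gene Ms4a2 was at 8.13, 6.25 and 5.92. The signalling chain gene Fcer1g was at 8.30, 7.31 and 7.05. Downstream, Pik3cg, the catalytic chain of PI3-kinase γ, was at 8.47, 6.17 and 6.07, and the adaptor gene Lat2 at 9.71, 8.52 and 7.84. Inpp5d, which encodes the phosphatase SHIP1, an inhibitor of this pathway, was at 8.34 against 7.25. The T cell and mast cell adaptor gene Lat had one and the same value, 8.30, on both arrays.

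Single surface receptor genes were also far apart. Of 35 measured genes of Kit signalling and mast cell surface receptors, 10 were higher in mature mast cells by any amount, 7 lower and 18 tied, with a median of 0. Above 8 were 6, and the 5 that entered through the mast cell array alone were at least 4-fold higher (against 45% of such genes). The median of the 6 was 3.12, but 0.06 with a level of 7. The Mas-related receptor gene Mrgprb1 was at 10.55 in mature mast cells, 7.66 in progenitors and 5.73 in innate lymphoid cells, a fold of at least 18.9. Mrgprb2, the receptor for cationic secretagogues, was at 8.16, 8.06 and 5.82, and lies 1 protein-coding gene from Mrgprb1. Mrgpra6, of the same receptor family, was at 8.55, 2.83 and 2.81, so in this gene the progenitors were as low as the lymphoid cells. Cd63, a tetraspanin of granule membranes, was at 10.54, 10.29 and 7.24. Cd81, another tetraspanin, was at 10.79, 7.15 and 7.86. Both tetraspanins were thus high in mature mast cells, and in progenitors Cd63 was high and Cd81 low.

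Signal relays lay on both sides. Tyrobp, which encodes the adaptor DAP12, was at 11.15 in mature mast cells, 9.51 in progenitors and 6.37 in innate lymphoid cells, a fold of 27.4. Of 42 measured genes of G protein and second messenger signalling, 11 were above 8, with a median difference of 0.11. Of these 2 were at least 4-fold higher and none lower, against 9.6% and 7.86% of all 1031. The 2 were among 4 that entered through the mast cell array alone, against 45% of such genes. Of the 42, 10 were higher by any amount, 11 lower and 21 tied. Rgs18, a regulator of G protein signalling known from platelets, was at 8.69, 5.93 and 4.24, a fold of at least 5.22. Plek, which encodes the protein kinase C substrate pleckstrin, was at 10.08 in mature mast cells and 6.95 in both of the other populations. Gnai3, an inhibitory G protein subunit, was at 8.59 against 6.60, a difference of 1.99 that lies just inside 4-fold. Rap1b, a small GTPase of integrin activation, stood the other way, at 9.72 against 11.71.

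**Figure D3:**
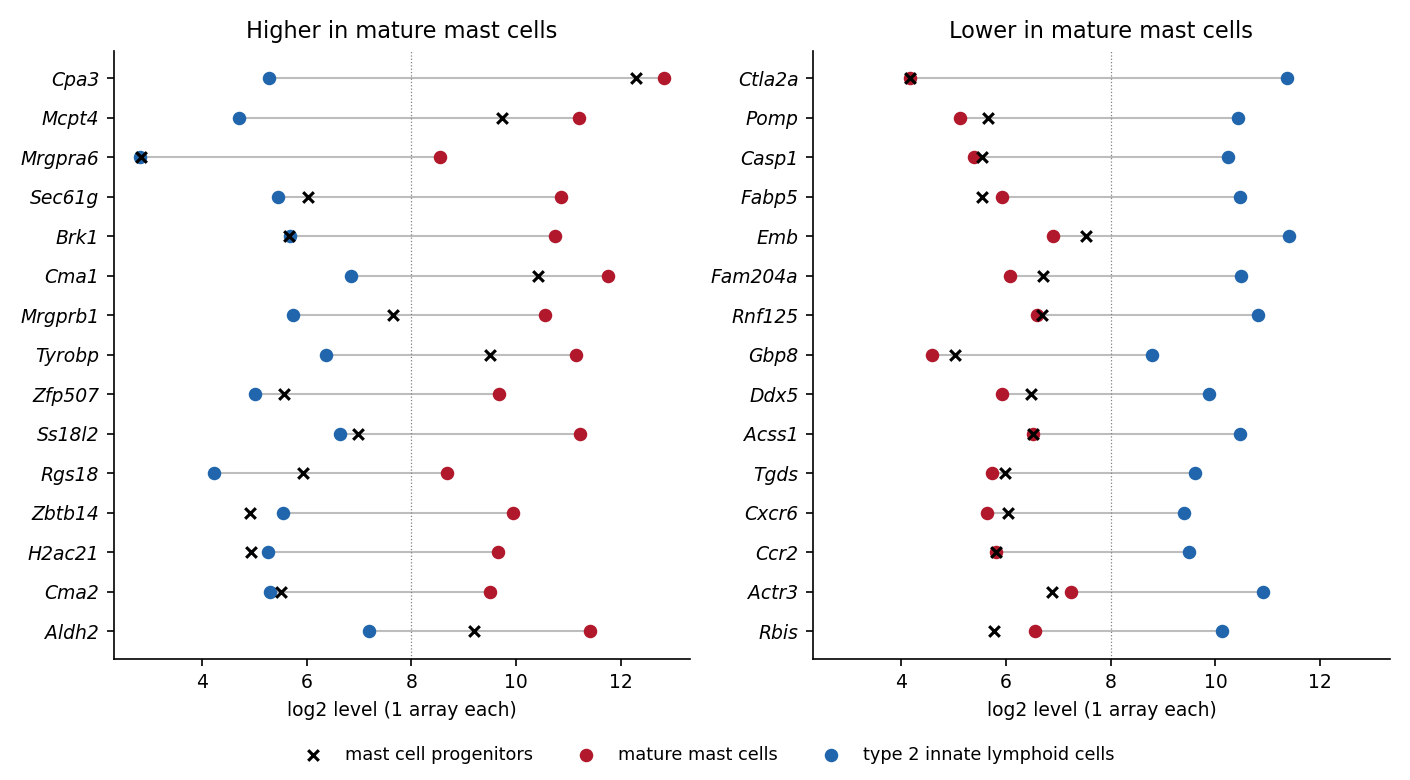
Log2 levels (horizontal axis) of the 15 genes with the largest differences in each direction, with provisional, small RNA and sensory receptor symbols left out. Mature mast cells are in red, type 2 innate lymphoid cells in blue and mast cell progenitors as crosses, 1 array each. Progenitors lie near mature mast cells for Cpa3 and Mcpt4, near innate lymphoid cells for Brk1 and Mrgpra6, and near mature mast cells for the 15 genes lower in mature mast cells.

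Not all leading mast cell genes have a known mast cell role. Aldh2, the mitochondrial aldehyde dehydrogenase, was at 11.41 in mature mast cells, 9.20 in progenitors and 7.19 in innate lymphoid cells, a fold of 18.6. Its other probe set had the same value, 6.07, in both populations. Serpinb1a, an inhibitor of neutrophil-type serine proteases, was at 10.71, 8.27 and 6.73. Sec61g, a subunit of the channel that carries new proteins into the endoplasmic reticulum, was at 10.86, 6.02 and 5.46, a fold of at least 23.5. Brk1, part of the WAVE complex that activates Arp2/3, was at 10.74, 5.65 and 5.69, a fold of at least 21.7. For Sec61g and Brk1 the mature mast cell array stood alone, with progenitors at the lymphoid level. The same held for the zinc finger genes Zfp507 (9.67, 5.57 and 5.003) and Zbtb14 (9.94, 4.92 and 5.55), each by 1 of 3 probe sets, and for the histone gene H2ac21 (9.65, 4.93 and 5.26), by 1 of 2. Ss18l2 was at 11.22, 6.99 and 6.64.

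Some genes of the innate lymphoid surface list were high in lymphoid cells. Of 44 measured, 19 were lower in mature mast cells by any amount, 2 higher and 23 tied, with a median of 0. The 7 above 8 entered through the lymphoid array alone, and 5 of these were lower by 4-fold or more, against 30.5% of such genes. Their median was -2.24, and -1.40 with a level of 7. One of the 5, Ctla2a, encodes an inhibitor of cathepsin-type proteases and no surface protein, and had the largest difference of all named genes in this direction. It was at 11.37 in innate lymphoid cells and 4.16 in both mast cell populations, a fold of at least 33.7. Its relative Ctla2b was at 5.96 against 4.88, and probe sets of the gene pair may share signal. Emb, the adhesion protein embigin, was at 11.41 in innate lymphoid cells, 6.90 in mature mast cells and 7.54 in progenitors, a fold of 22.8 by 1 of its 2 probe sets. Cd52, a small glycoprotein of lymphocyte membranes, was at 8.55 against 6.34 in both mast cell populations. Tnfrsf18, the costimulatory receptor GITR, was at 9.41 against 7.61, under 4-fold.

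Of 41 measured chemokine receptors and adhesion genes 11 were lower in mature mast cells by any amount, 2 higher and 28 tied. Above 8 were 7, of which 6 entered through the lymphoid array alone, and 3 of these, Emb, Cxcr6 and Ccr2, were lower by 4-fold or more (against 30.5% of such genes). The median of the 7 was -1.66, but 0 with a level of 7. Ccr2, the receptor for the monocyte chemokine CCL2, was at 9.50 in innate lymphoid cells and 5.82 in both mast cell populations, a fold of at least 9.18. Cxcr6 and Ccr2 are separated by 4 protein-coding genes in the receptor cluster of chromosome 9. Cxcr4, the receptor for CXCL12, was at 9.16 against 7.502. Selplg, the selectin ligand PSGL-1, was at 8.44 against 7.73, and Itgb1, the integrin β1 chain, at 8.04 against 7.82. Cx3cr1, the fractalkine receptor gene, had the same value of 8.19 on both arrays.

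Cell death and interferon genes lay on both sides. Of 4 cell death genes above 8, 2 were lower in mature mast cells by 4-fold or more, and of 4 interferon genes 1 was. In each list 2 genes entered through the lymphoid array alone, the called ones among them, against 30.5% of all such genes called. Of 30 measured cell death genes, 12 were lower in mature mast cells by any amount, 3 higher and 15 tied. Of 32 measured interferon genes, 7 were lower, 10 higher and 15 tied. Casp1, which encodes the inflammatory caspase 1, was at 10.24 in innate lymphoid cells, 5.38 in mature mast cells and 5.53 in progenitors, a fold of at least 15.4. Bcl2a1a, of the BCL2 survival family, was at 8.80 against 5.93 in both mast cell populations, and it has near-identical copies in the genome that a probe set may also detect. Bcl2 itself stood the other way, at 9.04 in mature mast cells against 7.73 in innate lymphoid cells. Mcl1, another survival gene, was at 9.52 against 10.32. Gbp8, an interferon-induced GTPase gene, was at 8.79 against 4.59, whereas the interferon-induced genes Ifit3 (8.02 against 9.05) and Ifitm2 (7.72 against 8.63) were lower in lymphoid cells. Klf6, a Kruppel-like transcription factor gene, was at 10.30 in innate lymphoid cells, 7.07 in mature mast cells and 6.94 in progenitors.

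Further single genes of other lists were high in innate lymphoid cells. Of 37 measured genes of fatty acid and aldehyde metabolism, 10 were higher in mature mast cells by any amount, 12 lower and 15 tied. Above 8 were 4, each on 1 array alone, which fixes their side. Fabp5 and Acss1 were higher in innate lymphoid cells, and Aldh2 and Etfb (8.47 in mature mast cells, 7.64 in lymphoid cells) lower. All but Etfb were at least 4-fold apart, against 45% of genes above 8 on the mast cell array alone and 30.5% on the lymphoid array alone. Fabp5, a fatty acid binding protein, was at 10.47 in innate lymphoid cells, 5.91 in mature mast cells and 5.54 in progenitors, a fold of at least 18.1. Of its 4 probe sets 2 were past 4-fold. Acss1, the mitochondrial enzyme that activates acetate, was at 10.47 against 6.51 in both mast cell populations by 1 of 2 probe sets. S100a4, a calcium-binding protein of motile cells, was at 10.44 against 6.87. Its relatives S100a10 (9.09 against 7.33) and S100a6 (11.38 against 10.01) were within 4-fold. Anxa1, a membrane-binding annexin, was at 8.05 in innate lymphoid cells and 9.07 in mature mast cells. Pomp, the assembly factor of the proteasome, was at 10.43 against 5.12, a fold of at least 17.5. Rnf125, a ubiquitin ligase gene, was at 10.81 against 6.58, and Ddx5, an RNA helicase gene, at 9.88 against 5.91.

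Ribosomal protein genes were lower in mature mast cells by small amounts across most of the list. Of 59 measured genes 36 were above 8, and 28 were above 8 on both arrays. Of these 28, all but 1 were below 0 in the difference, the exception being an exact tie, and 12 (42.9%) were lower by 2-fold or more in mature mast cells, against 48 of 540 genes outside the list (8.89%). The median difference of the 28 was -0.89, against 0 for all 568. Rps12 was at 9.72 in mature mast cells against 11.62 in innate lymphoid cells, Rps3a1 at 8.91 against 10.63 and Rpl15 at 8.78 against 10.40. Rpl4 was level, at 12.07 against 12.09. Outside the 28, Rpl9 (4.89 against 8.31, by 1 of 2 probe sets) and Rps26 (7.74 against 10.21) were at least 4-fold lower, and Rplp0 stood the other way, at 8.33 against 6.84. Over all 59, with no cutoff, 49 were lower by any amount, 2 higher and 8 tied, with a median of -0.59. Many ribosomal protein genes have processed pseudogenes, so their probe sets may share signal.

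Translation factor genes lay mostly on the same side. Of 30 measured, 18 were lower in mature mast cells by any amount, 3 higher and 9 tied. The 9 that were above 8 on both arrays were lower, 3 of them (33.3%) by 2-fold or more, against 10.6% of all 568, with a median of -0.78. Eef1d, of the same elongation complex as Eef1a1, stood the other way, at 8.30 against 7.45. Eef1a1, which brings aminoacyl-tRNA to the ribosome, was at 10.97 in mature mast cells against 12.04 in innate lymphoid cells, and Eef2, which moves the ribosome along, at 9.10 against 10.18. The initiation helicase gene Eif4a1 was at 9.02 against 10.12. Its relative Eif4a2 was at 7.95 against 8.81 by the probe set used, but its difference was -6.06 by another probe set.

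**Figure D4:**
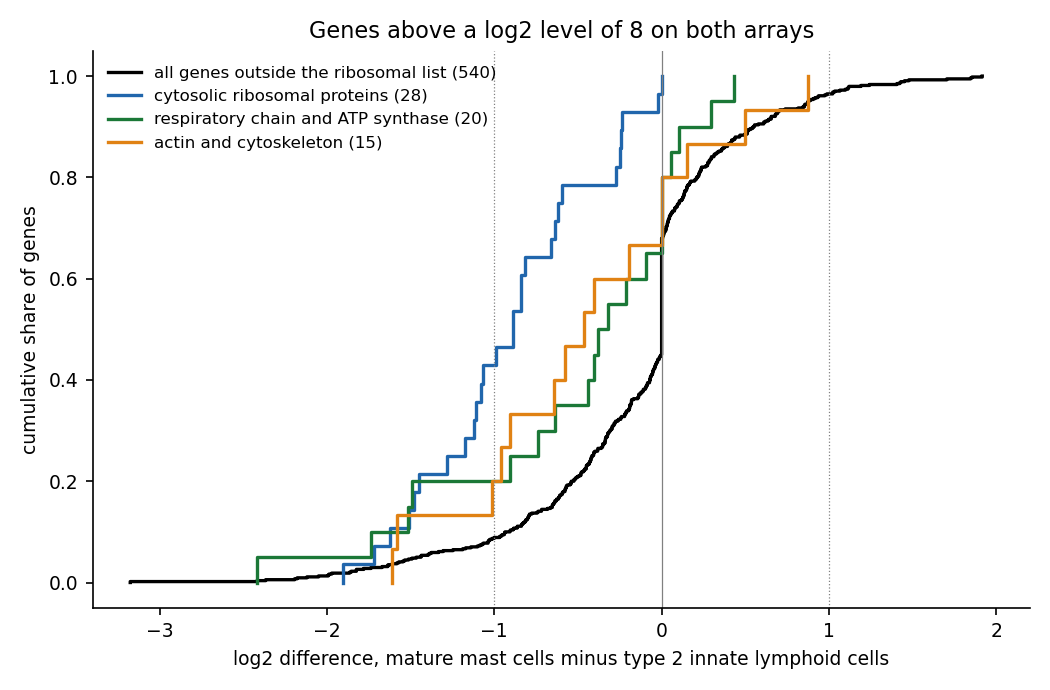
Cumulative share of genes (vertical axis) by log2 difference, mature mast cells minus type 2 innate lymphoid cells (horizontal axis), for genes above 8 on both arrays. At a difference of -1, the curve stands at 42.9% for the 28 ribosomal protein genes, 20% for both the 20 respiratory chain and the 15 actin and cytoskeleton genes, and 8.89% for the 540 genes outside the ribosomal list.

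The respiratory chain genes lay on both sides. Of 60 measured genes 24 were above 8, of which 2 were at least 4-fold higher and 2 lower by as much in mature mast cells, close to the 9.6% and 7.86% of all 1031. The median difference was -0.27, and 0 over all 60. Cox5a (7.71 against 10.33) and Cox4i1 (8.73 against 11.15), subunits of cytochrome c oxidase, were lower. Ndufa2 (9.47 against 6.02) and Ndufa3 (8.77 against 6.46), subunits of complex I, were higher, with progenitors at 5.53 and 6.46. Within complex I, Ndufa12 (8.03 against 9.76) and Ndufa1 (9.23 against 10.75) lay on the other side.

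Protein handling and the cytoskeleton were likewise mixed. Of 48 measured genes of endoplasmic reticulum translocation and folding 17 were above 8, with 2 at least 4-fold higher and 1 lower in mature mast cells, against 9.6% and 7.86% of all 1031. Beside Sec61g, Ost4, a subunit of the glycosyl transfer complex, was higher (9.95 against 7.52), and both of its probe sets passed 4-fold. Sec61b, another channel subunit, was at 8.99 against 7.47. Spcs3, a subunit of signal peptidase, was lower, at 5.69 against 9.09. Of 35 measured genes of the proteasome and ubiquitin 10 were above 8. Psmc1 was at 9.43 in mature mast cells against 7.41 in innate lymphoid cells, and Psmc2, another ATPase of the same ring, at 10.84 against 12.23. Of 44 measured actin and cytoskeleton genes, 23 were lower in mature mast cells by any amount, 6 higher and 15 tied. Above 8 were 19, with Brk1 higher and Actr3 lower by 4-fold, against 9.6% and 7.86% of all 1031. Actr3, a core subunit of the actin-nucleating Arp2/3 complex, was at 7.24 against 10.91. Capza1, which caps actin filaments, was at 9.07 against 10.68, and Myl12a, a myosin light chain, at 8.24 against 9.83.

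**Figure D5:**
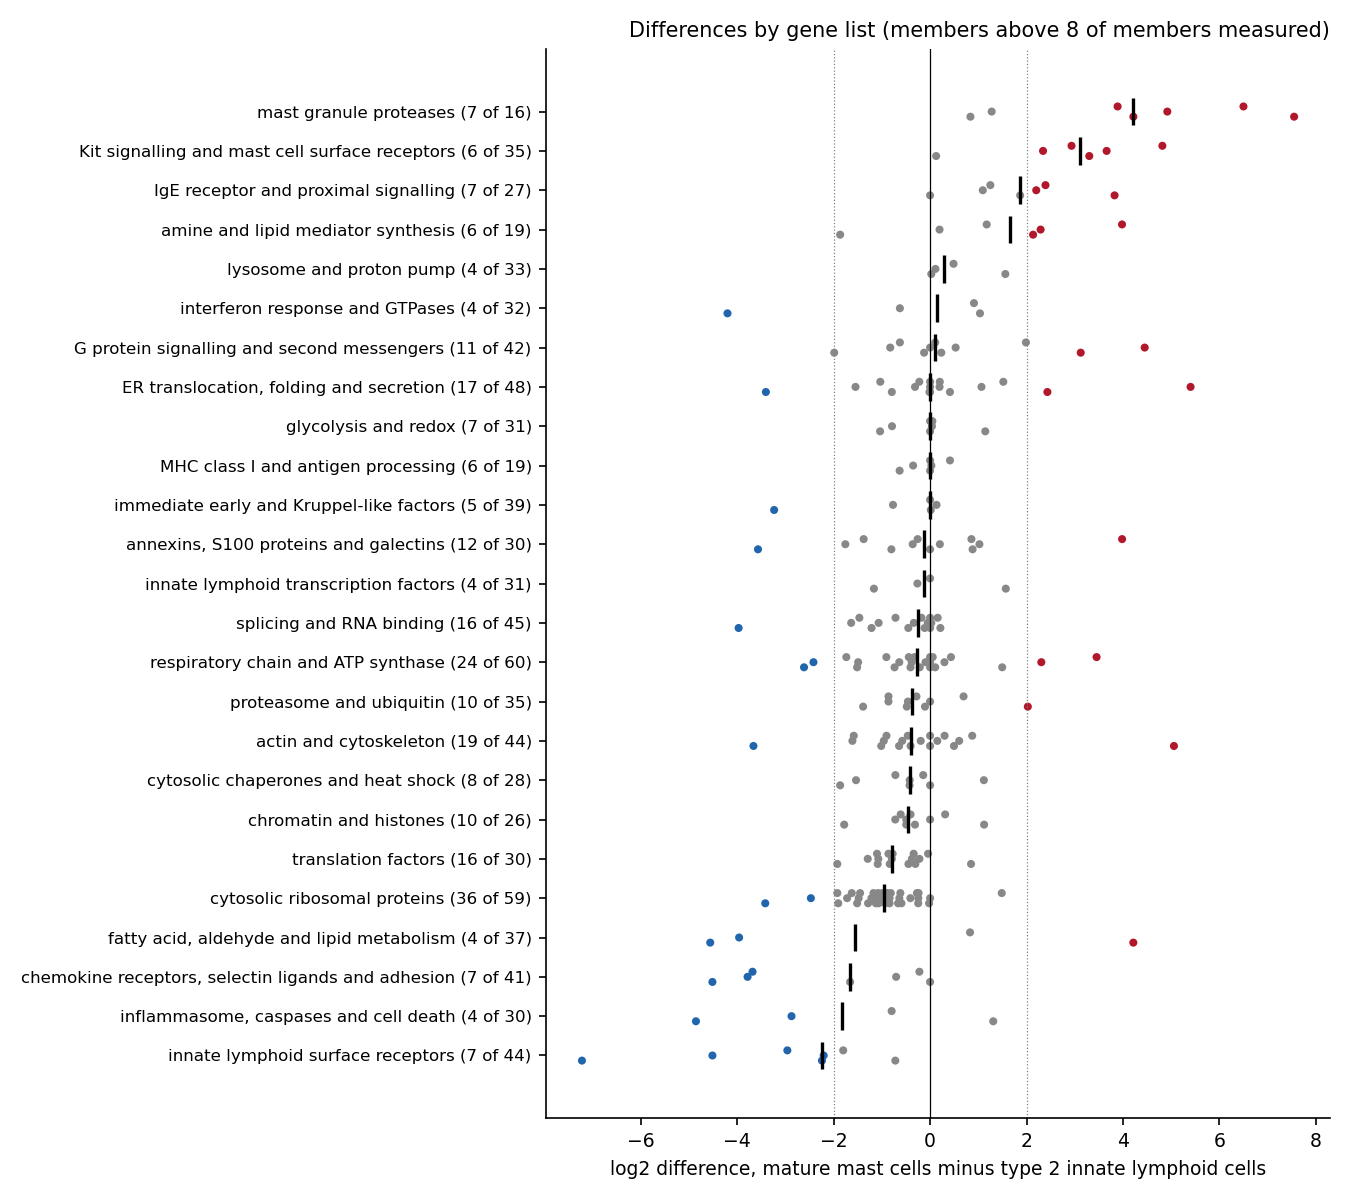
Log2 difference, mature mast cells minus type 2 innate lymphoid cells (horizontal axis), of each gene above 8 on either array, by gene list (lists with at least 4 such genes), with medians as black bars and dotted lines at 4-fold. Where genes entered through 1 array alone the cutoff fixes their side, as for the 7 granule protease genes at right and the 7 lymphoid surface genes at left, and 27 of the 28 ribosomal protein genes above 8 on both arrays lie below 0.

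Transcription factors of either lineage were mostly too dim to be compared here. The same held for most genes, since of all 22180 genes 1031 were above 8 and 13452 were tied. The counts that follow are to be read beside those shares. None of 21 measured mast cell transcription factors was above 8, and 15 of the 21 had exactly equal values. Gata2 was at 7.59 against 7.501 and Mitf at 6.69 on both arrays. Of 31 measured innate lymphoid transcription factors 4 were above 8. Batf, which pairs with JUN proteins, was at 7.65 in mature mast cells against 8.81 in innate lymphoid cells, and Myb stood the other way, at 8.21 against 6.64. Of 32 measured type 2 cytokines and effectors 2 were above 8, Arg1 and Ccl5. Of 33 measured lysosomal genes 4 were above 8 and none was 4-fold apart, with Psap, a precursor of lysosomal activators, at 8.22 against 6.66. Of 28 measured genes of exocytosis 2 were above 8, and Vamp8, a granule SNARE, had the same value, 8.996, on both arrays.

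Some of the brightest genes were alike in both populations. The 10 brightest of the genes with near-equal levels were 5 mitochondrially encoded genes (ND4, ND5, ND6, CYTB and COX1), the nuclear RNAs Rn7sk and Malat1, the chaperone gene Hspa8, Rpl4 and B2m. B2m encodes the light chain shared by MHC class I molecules. Its level was 12.11 in mature mast cells and 12.08 in lymphoid cells, but 7.54 in progenitors. Hspa8 was at 12.30 against 12.44, with 11.12 in progenitors. Of 19 measured genes of MHC class I and its peptide supply 6 were above 8 and none was 2-fold apart. Canx, a chaperone of class I folding, was at 10.24 against 9.82.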

How the data were processed

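RNA of 100 sorted cells per population, pooled from 5 mice, was amplified and hybridised to 1 array each. The authors deposited log2 values for 41345 probe sets. RMA is named in the submitters' processing notes, and its software and the genome build are not given in the sources used here. The deposited values ran from 2.23 to 13.7 on the log2 scale and were used unchanged, since percentiles 1 to 99 of the pair of arrays differed by at most 0.184.

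Probe sets naming 1 gene in the platform table were kept, the brightest per gene by its mean over 3 arrays. Differences were computed with Python 3.11.15, pandas 2.3.3 and numpy 2.4.6, and the script was tested on simulated data. The members and gene lists were chosen with earlier results of these data known. Genes named are the 15 largest differences per direction, the markers, up to 6 per list, 10 near-equal genes and 3 on each side of the level of 8. Provisional, small RNA and sensory receptor symbols were left out of the first and last of these sets. Tpsab1, Cx3cr1, Rplp0, Eef1d, Fcgr3, Fcgr2b, Itgb7, genes named from lists below 8 and those in the closing section were added after their values were seen. Promoter windows and gene order came from RefSeq, GRCm38.p6. Protein sequences were not used here.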

Additional observations from a re-analysis of the deposited data

Results flagged for a closer look

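Probe sets that the comparison did not use also differed between the arrays. Of 1814 probe sets that name several genes, 42 were above 8 on either array and at least 4-fold apart, 27 of them higher and 15 lower in mature mast cells. Of 16010 probe sets that the platform table leaves unnamed, 583 were above 8 and at least 4-fold apart, 296 of them higher and 287 lower. None of these is assigned to a gene here, and with 1 array per population none of the differences was tested.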

How the results depend on the processing

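The counts of genes 4-fold or more apart depended on the level and the fold asked for. The number of genes at least 4-fold higher in mature mast cells was 64 with a level of 9 in place of 8. A fold of 2 gave 177 higher and 199 lower, and a fold of 8 gave 58 and 38. Of 20 gene lists with at least 5 members above the level, 8 had a median of 0.5 or more in size, and 5 did with a level of 7. Under the mean of a gene's probe sets 88 genes were higher and 72 lower, and after quantile scaling 100 and 77. With levels below an array's median set to that median, an alternative chosen after seeing the data, they were 88 and 72. Among named genes 4-fold apart and list medians of 0.5 or more in size, none that stayed above the level was reversed. Other genes, and those that fell under the level, were not checked for direction. Single probe sets could differ in sign, as in Zbtb14 (-1.72, against 4.39 for the probe set used) and Taf1d (3.45 against -3.47). Of the 29 genes 4-fold apart with several probe sets, 18 fell short of 4-fold by their mean. Among those named, Acss1 (-1.98), Tgds (-1.95), Cyp11a1 (1.07) and Rbpj (-1.94) did so while above 8, and Zbtb14 (0.89), Zfp507 (1.56), Rpl9 (-1.71) and Rbis (-1.79) also dropped under 8. By the mean 16 of the 29 were not above 8. These include Fabp5 (-2.32), H2ac21 (2.19), Rps26 (-2.08), Dpep2 (2.06), Seh1l (3.25) and Vmn1r208 (2.14), which stayed past 4-fold. No paired analysis was possible because each population has 1 array and no result comes from a test. For the same reason no replicate could be left out.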

Other observations

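Genes outside the lists made up most of those far apart, 72 of the 99 higher and 59 of the 81 lower in mature mast cells. The same held for genes above 8 in general, since the lists held 264 of all 1031. They held 27 of the 99 and 22 of the 81, shares near that one, so these counts do not set the genes far apart from the rest. The genes named here were chosen after their values were seen. In mature mast cells Dpep2, a dipeptidase gene of leukotriene conversion, was at 8.84 against 4.71, a fold of at least 5.81. Gfra2, a receptor gene for neurturin, was at 9.65 against 7.24, and Elf1, an ETS transcription factor gene, at 9.61 against 6.49 in both of the other populations. Capns1, the small calpain subunit, was at 9.69 against 6.67.

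In innate lymphoid cells Rbpj, the transcription factor gene of Notch signalling, was at 10.78 against 7.43 in mature mast cells and 8.63 in progenitors. Dgka, a diacylglycerol kinase gene known from T cells, was at 8.99 against 6.07, a fold of at least 6.46. Atp2b1, a calcium pump of the plasma membrane, was at 9.81 against 7.21.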
